A study of Rattus norvegicus with 4 samples.

Results

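Adipocytes store fat as triacylglycerol in lipid droplets and release it by lipolysis. The expression of 10 genes of this machinery, Pnpla2, Abhd5, G0s2, Lipe, Mgll, Plin1, Plin2, Plin4, Plin5 and Cidec, was measured in nuclei of rat fat. The genes were given as a list of symbols and were found by symbol among the 32883 genes counted, where each has a single identifier. Nuclear RNA was profiled from snap-frozen thoracic aorta perivascular adipose tissue (taPVAT, the fat around the thoracic aorta) and from subscapular brown adipose tissue (BAT), with 2 libraries per tissue. All rats were naive males of the Dahl salt-sensitive strain SS/HsdMcwiCrl, aged 16 weeks, fed standard chow and housed alike in both groups. The labels do not say whether 1 rat gave both tissues, nor what a shared replicate number stands for, so a test over libraries measures the spread between these libraries only.

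Lipolysis proceeds in steps at the surface of the droplet. Pnpla2 encodes adipose triglyceride lipase, which starts the breakdown of triacylglycerol, Abhd5 encodes its coactivator CGI-58 and G0s2 encodes its inhibitor. Lipe encodes hormone-sensitive lipase, which acts on diacylglycerol, and Mgll encodes monoacylglycerol lipase, which completes the release of fatty acids and also degrades the endocannabinoid 2-arachidonoylglycerol. Perilipins, encoded by the Plin genes, coat the droplet and control the access of lipases, and Cidec encodes a protein that drives the fusion of droplets. In brown adipocytes the fatty acids released fuel heat production.

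The start regions of 3 of these genes are shown as examples. In the vascular endothelial nuclei described below Mgll was higher than in adipocytes, and Plin1 and Plin2 are among the 8 of 10 genes that were lower. The sequences are from RefSeq, rat build GRCr8, and run from 250 bases before to 50 bases after the annotated start of transcription. They are those of the reference genome and not of the strain studied. The Mgll region is chr4:122749186-122749485 on the plus strand, that of Plin1 is chr1:143086099-143086398 on the minus strand and that of Plin2 is chr5:106228969-106229268 on the minus strand. Capitals mark matches, on either strand, to CACGTG (an E-box), CCAAT (the CCAAT box), CCGGAA (an ETS core) and TGACG (the half-site of a cAMP response element).
Mgll: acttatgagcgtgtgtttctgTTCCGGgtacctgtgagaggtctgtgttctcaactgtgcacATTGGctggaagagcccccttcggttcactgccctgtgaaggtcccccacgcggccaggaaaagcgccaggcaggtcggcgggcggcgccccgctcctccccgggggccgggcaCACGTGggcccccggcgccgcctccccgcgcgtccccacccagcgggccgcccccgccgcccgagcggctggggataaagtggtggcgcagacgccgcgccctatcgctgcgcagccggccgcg
Plin1: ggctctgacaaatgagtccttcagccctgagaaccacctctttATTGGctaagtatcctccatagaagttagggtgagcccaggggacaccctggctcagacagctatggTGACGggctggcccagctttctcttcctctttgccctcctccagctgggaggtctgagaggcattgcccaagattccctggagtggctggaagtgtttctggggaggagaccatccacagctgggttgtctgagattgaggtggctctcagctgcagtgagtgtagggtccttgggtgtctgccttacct
Plin2: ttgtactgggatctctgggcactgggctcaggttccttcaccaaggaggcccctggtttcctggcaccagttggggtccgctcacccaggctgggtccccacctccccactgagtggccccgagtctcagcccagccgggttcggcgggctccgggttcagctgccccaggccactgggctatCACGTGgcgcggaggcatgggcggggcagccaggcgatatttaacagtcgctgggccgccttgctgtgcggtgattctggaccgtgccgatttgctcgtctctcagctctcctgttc

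CACGTG was found in the regions of Mgll and Plin2, and in 6.42% of the 33469 start regions of the same length in the table. CCAAT was found in Mgll, Plin1, Plin5 and a further start of Plin2 (37.5% of all), CCGGAA in Mgll (14.95%) and TGACG in Plin1 (21.2%). The half-site AGGTCA of nuclear receptors was found in Abhd5, G0s2 and Plin5 (16.2%). The direct repeat of PPAR/RXR, AGGTCA written again after 1 further base (0.0538% of all), the full cAMP response element TGACGTCA (1.83%), which contains TGACG, and TATAAA (14.2%) were in none of the regions of the 9 genes with an entry. Lipe has no entry. These matches describe letters in a window and do not show binding.

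The 4 libraries held 63654436 to 158140959 unique molecular identifiers (UMIs, each a counted RNA molecule) and 14765 to 44637 barcodes, where the protocol aimed at 10000 nuclei per library, and 12336 to 42979 barcodes had at least 500 genes. From their UMIs of marker genes, none of which is among the 10 genes, nuclei were called adipocyte-like, vascular endothelial-like, mural-like (smooth muscle and pericytes), myeloid-like, T or NK lymphocyte-like, or fibroblast-like, a class that takes in other mesenchymal nuclei. The suffix is dropped from here on. Adipocytes numbered 91833 of 116661 nuclei, and the other 5 of these larger classes held 393 to 4873 nuclei each. Smaller classes, among them Schwann nuclei and B lymphocytes, held 0 to 174 nuclei each. Other nuclei entered no class. Per library, 3.57% to 7.94% carried markers of another class beside adipocyte markers, 1.28% to 2.22% those of several other classes, and 2.40% to 3.81% were unassigned. In adipocytes the 12 adipocyte markers summed to 26549 to 29081 counts per 1000000 UMIs (CPM), against 54.7 to 134 CPM for the 10 vascular endothelial markers used. The same markers set the classes, so such contrasts were partly fixed in advance. The highest sums of other lists in adipocytes were those of the 11 fibroblast markers used, at 151 to 174 CPM in taPVAT and 134 to 170.1 CPM in BAT, and of the 10 mural markers, at 143 to 156 CPM in taPVAT and 164 to 184 CPM in BAT. The gene of the uncoupling protein that defines brown fat, Ucp1, was present in adipocytes of both tissues, at 934 and 454 CPM in taPVAT and 1544 and 649.7 CPM in BAT. Libraries shared 93 to 381 cell barcodes per pair, 0.754% to 1.19% of the smaller library. CPM values compare a gene between samples. They do not rank genes against each other, since 3′ counts depend on how each gene end is annotated.

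Of the genes that start lipolysis, Abhd5 and G0s2 were well detected in adipocytes and the lipase gene Pnpla2 was almost not counted. Pnpla2 (ENSRNOG00000018736) gave 42 and 43 UMIs over all adipocytes of the taPVAT libraries (replicates 1 and 2), and 51 and 38 UMIs over those of the BAT libraries. Those counts correspond to 0.318, 0.787, 0.377 and 0.494 CPM, in the same order, and the tissues overlapped. Few were counted in the other classes, with 4 UMIs in all vascular endothelial nuclei, 1 in mural nuclei and 0 in fibroblast, myeloid and T or NK nuclei, where a count of 0 allows 1.83 to 37.5 CPM per library (3 UMIs). For the annotation of this gene used in counting, no release is named by the labels or notes, and the value describes the reads assigned to it.

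Abhd5, the coactivator (ENSRNOG00000000221), measured 237 CPM (replicate 1) and 369 CPM (replicate 2) in taPVAT, and 272 CPM (replicate 1) and 411 CPM (replicate 2) in BAT. In both tissues replicate 2 was the higher library, and the ranges of the tissues overlapped. G0s2, the inhibitor (ENSRNOG00000006019), measured 472 CPM (replicate 1) and 625 CPM (replicate 2) in taPVAT, and 579.9 CPM (replicate 1) and 769.5 CPM (replicate 2) in BAT. Again replicate 2 was higher in each tissue, and taPVAT was lower than BAT within each replicate number by nearly the same amount, a log2 ratio of -0.30 in number 1 and -0.30 in number 2. For Abhd5 these log2 ratios of taPVAT over BAT were -0.20 and -0.15.

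The lipases of the next steps, Lipe and Mgll, behaved differently between libraries. Lipe (ENSRNOG00000020546) measured 877 CPM (replicate 1) and 953 CPM (replicate 2) in taPVAT, and 1225 CPM (replicate 1) and 999 CPM (replicate 2) in BAT. In these unscaled CPM both taPVAT libraries were below both BAT libraries, with log2 ratios of -0.48 and -0.07 within numbers 1 and 2. With the TMM scaling factors of the edgeR test below, 0.947 for taPVAT replicate 2 and 0.996 for BAT replicate 2, the tissues overlap. Mgll (ENSRNOG00000014508) measured 972 CPM (replicate 1) and 764 CPM (replicate 2) in taPVAT, and 1149 CPM (replicate 1) and 502 CPM (replicate 2) in BAT. The 2 BAT libraries were the highest and the lowest of the 4, so the tissues overlapped, and the log2 ratio was -0.24 in number 1 and 0.61 in number 2.

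The perilipins and Cidec were also lower in taPVAT than in BAT in replicates numbered 1. Plin1, the main coat protein of adipocyte droplets (ENSRNOG00000015086), measured 2039.5 CPM (replicate 1) and 1399 CPM (replicate 2) in taPVAT, and 2679.5 CPM (replicate 1) and 1464 CPM (replicate 2) in BAT. Replicate 1 was the higher library in each tissue. Plin2, the coat protein found on droplets of most cells (ENSRNOG00000007060), measured 215 CPM (replicate 1) and 186 CPM (replicate 2) in taPVAT, and 254 CPM (replicate 1) and 217 CPM (replicate 2) in BAT, and both taPVAT libraries were below both BAT libraries. Plin4 (ENSRNOG00000047046), which coats small nascent droplets, measured 38.1 CPM (replicate 1) and 53.9 CPM (replicate 2) in taPVAT, and 59.1 CPM (replicate 1) and 26.5 CPM (replicate 2) in BAT. The lowest and the highest of these values were both from BAT. Plin5 (ENSRNOG00000047860), which links droplets to mitochondria in oxidative tissues, measured 87.3 CPM (replicate 1) and 64.2 CPM (replicate 2) in taPVAT, and 153 CPM (replicate 1) and 64.3 CPM (replicate 2) in BAT. BAT replicate 1 stood above the other 3 libraries, and both libraries numbered 2 were nearly equal. Cidec (ENSRNOG00000009153) measured 376 CPM (replicate 1) and 265 CPM (replicate 2) in taPVAT, and 502 CPM (replicate 1) and 357 CPM (replicate 2) in BAT. Its log2 ratio of taPVAT over BAT was -0.42 in number 1 and -0.43 in number 2, while the lower BAT library was below the higher taPVAT library.

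**Figure D1:**
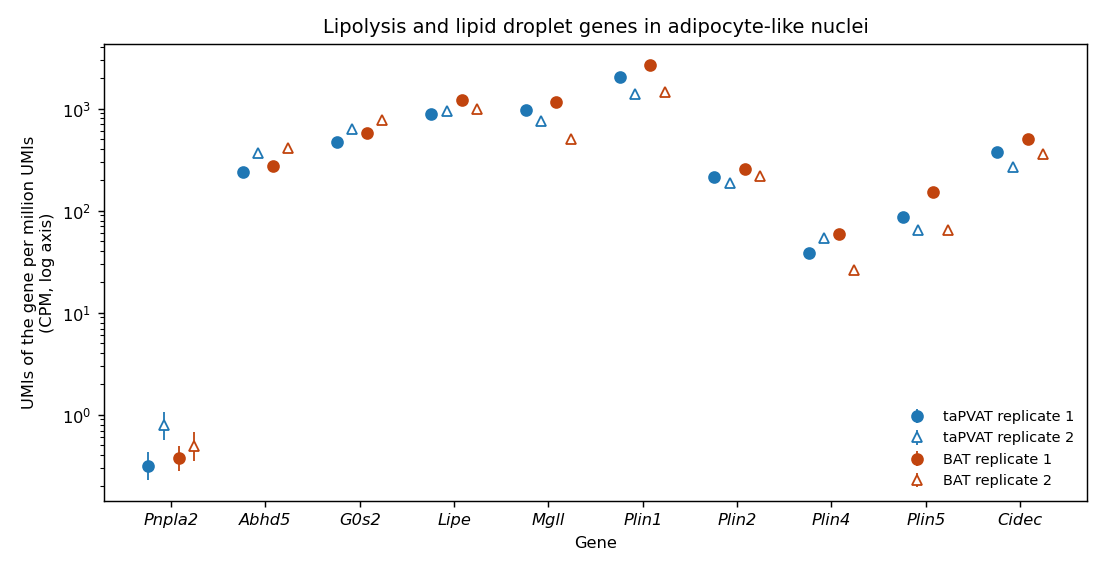
Level of each gene in adipocyte-like nuclei, in CPM on a log axis, with 1 point per library (taPVAT blue, BAT red; circles replicate 1, triangles replicate 2) and exact 95% Poisson bars, which cover counting error only and are mostly smaller than the points. Pnpla2 lies below 1 CPM in all 4 libraries, and in these unscaled CPM the tissues separate only for Lipe and Plin2. With the TMM scaling factors of the edgeR test they overlap for Lipe.

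Gene by gene, in unscaled CPM, taPVAT adipocytes had the lower value for 10 of the 10 genes in replicates numbered 1 and for 7 in replicates numbered 2. Over the 16182 genes tested these shares were 53% and 53%. The direction was lower in both numbers for 7 of 10 genes (Abhd5, G0s2, Lipe, Plin1, Plin2, Plin5 and Cidec), higher in both for 0 and mixed for 3 (Pnpla2, Mgll and Plin4). Among all genes tested 28.6% were lower in both numbers and 22.6% higher in both, also in unscaled CPM. The TMM scaling factors of the edgeR test below were 0.947 for taPVAT replicate 2 and 0.996 for BAT replicate 2. With the factors, the number 2 ratios of Lipe, Plin1 and Plin5 (-0.07, -0.06 and -0.0025 unscaled) turn above 0, so their direction becomes mixed. The tissues had no overlap of unscaled CPM for 2 of the 10 genes, Lipe and Plin2, both lower in taPVAT. With the TMM factors the tissues overlap for Lipe and stay apart for Plin2. For all genes tested 19.6% did not overlap (10.6% lower and 9.03% higher in taPVAT), so the count of 2 is near that background.

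None of these differences passed the test across genes. The quasi-likelihood test of edgeR on summed UMIs, with Benjamini-Hochberg adjustment, called 0 of the 10 genes (0 at an unadjusted p under 0.05) and 0 of 16182 genes in all (0% called), with 301 genes at an unadjusted p under 0.05. DESeq2 called 64 genes (0.396%), none of the 10 among them. Over all kept nuclei, without classes, edgeR called 0 of 17047 genes and DESeq2 121, again none of the 10, with 503 at an unadjusted p under 0.05 in edgeR. Leaving out BAT replicate 1 or BAT replicate 2 raised the number of genes called in adipocytes to 92 or 102, none of them among the 10, in fits where the 1 BAT library left is assumed to vary like the taPVAT libraries. Leaving out taPVAT replicate 1 or taPVAT replicate 2 gave 0 and 2 called genes. The fitted log2 fold changes of taPVAT over BAT, with their standard errors, were -0.38 ± 0.31 for Cidec, -0.47 ± 0.44 for Plin5 and -0.25 ± 0.33 for G0s2. Those of Lipe, Plin1 and Plin2 were -0.23 ± 0.28, -0.22 ± 0.39 and -0.18 ± 0.26. Abhd5 was at -0.12 ± 0.39, Mgll at 0.12 ± 0.43, Plin4 at 0.17 ± 0.44 and Pnpla2 at 0.38 ± 0.60. Their edgeR adjusted p-values were all 0.999994 in this fit, and the median of the 10 fold changes was -0.20 against 0.01 over all genes tested. Leaving out 1 library turned the sign of Pnpla2, Abhd5, G0s2, Mgll, Plin1, Plin4 and Plin5, and kept that of Lipe (-0.35 to -0.16), Plin2 (-0.29 to -0.13) and Cidec (-0.64 to -0.19).

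**Figure D2:**
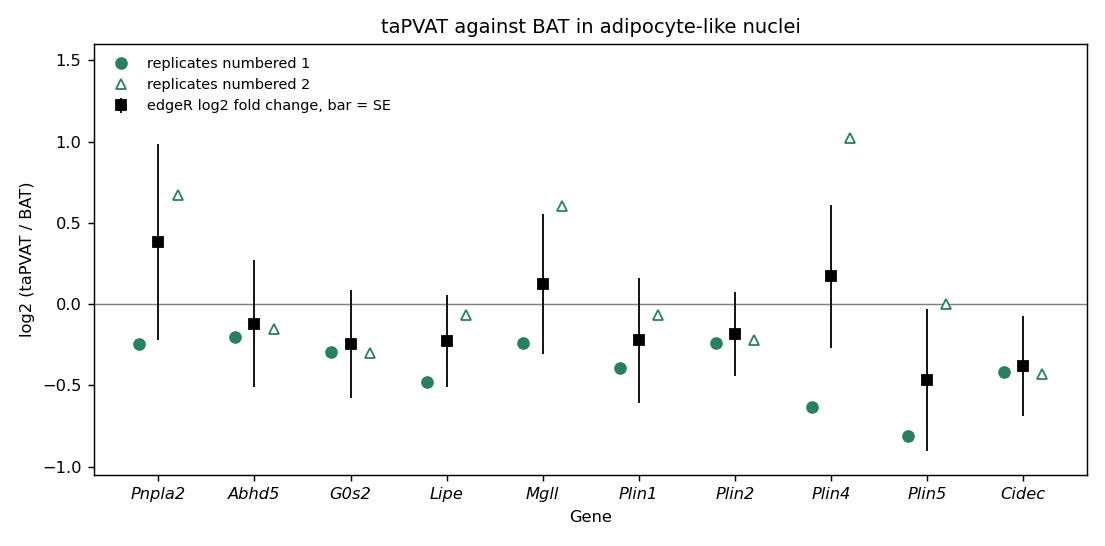
Difference between the tissues in adipocyte-like nuclei, as log2 of taPVAT over BAT, for each gene within replicates numbered 1 (circles) and 2 (triangles) and as fitted by edgeR over the 4 libraries (squares, bars are standard errors). The ratios within numbers use unscaled CPM. Cidec, G0s2, Plin2 and Abhd5 have nearly the same ratio in both numbers, and Pnpla2, Plin4 and Mgll have opposite signs.

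Differences between the libraries of 1 tissue were mostly larger than those between the tissues. Averaged over both tissues, the log2 difference between replicates 2 and 1 exceeded in size the log2 difference between taPVAT and BAT, averaged over both numbers, for 8 of the 10 genes (all but Lipe and Plin2), and for 71.2% of the 16141 genes tested that had a UMI in each of the 4 libraries. Replicate 2 was above replicate 1 in both tissues for Pnpla2, Abhd5 and G0s2 (3 of 10, against 32.2% of all genes). It was below replicate 1 in both for Mgll, Plin1, Plin2, Plin5 and Cidec (5 of 10, against 39.7%). Abhd5, for example, differed by 0.64 in taPVAT and 0.59 in BAT on the log2 scale, and Cidec by -0.50 and -0.49. The counts of genes given here are near the shares over all genes tested. The coactivator Abhd5 and the inhibitor G0s2 were both higher in the replicates numbered 2, and Mgll and Plin1 were lower there. Depth and mitochondrial UMIs of adipocytes differed between these libraries too, with medians of 2983 to 5054 UMIs and 6.09% to 9.49% mitochondrial UMIs, and their part in these differences was not tested.

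**Figure D3:**
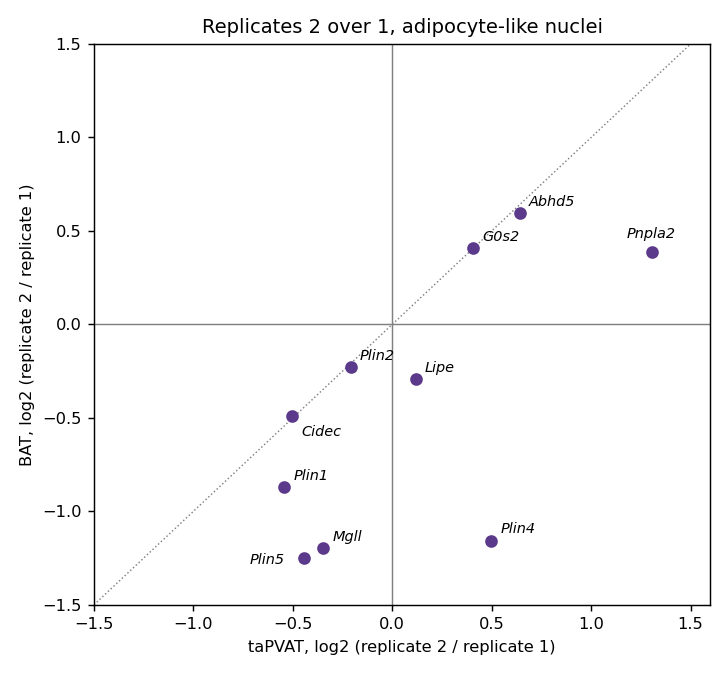
Log2 ratio of replicate 2 over replicate 1 in adipocyte-like nuclei, taPVAT on the horizontal and BAT on the vertical axis, with 1 point per gene and a dotted line where both are equal. Abhd5, G0s2, Plin2 and Cidec lie on or near the line, and Lipe and Plin4 are the genes whose ratio has opposite signs in the tissues.

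The genes were also read as the share of adipocyte nuclei with at least 1 UMI. Every nucleus was thinned to 1000 UMIs, since depth differed between libraries, and adipocytes below that depth were left out (15 to 441 per library). Nuclei of the other classes below 1000 UMIs were left out too, so the shares given for them below describe their deeper nuclei. Plin1 was found in 86.3% (replicate 1) and 74.8% (replicate 2) of nuclei in taPVAT, and in 92.6% (replicate 1) and 75.3% (replicate 2) in BAT. Unthinned, the shares of Plin1 were 96.5% to 99.8%. Lipe was found in 58.3% (replicate 1) and 60.8% (replicate 2) of nuclei in taPVAT, and in 70.2% (replicate 1) and 62.6% (replicate 2) in BAT, and Mgll in 56.5% (replicate 1) and 44.7% (replicate 2) of nuclei in taPVAT, and in 63.6% (replicate 1) and 34.1% (replicate 2) in BAT. The shares of G0s2 ranged from 37.6% to 50.6%, those of Cidec from 23.9% to 38.2% and those of Abhd5 from 20.5% to 31.3%. Plin2 was found in 14.8% to 21.0%, Plin5 in 6.56% to 14.2% and Plin4 in 2.73% to 5.58% of nuclei, and Pnpla2 in 0.0292% to 0.103%. Without thinning these ranges were 91.1% to 97.5% for Lipe, 64.5% to 94.0% for Mgll and 52.5% to 75.2% for Abhd5.

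At 1000 UMIs, the shares of the tissues separated for Lipe alone, which averaged 59.5% ± 1.76 in taPVAT and 66.4% ± 5.37 in BAT (SD, n = 2 each, exact two-sided permutation p = 0.333). No smaller p exists for groups of 2, so none of the 10 shares could pass a threshold of 0.05. Without thinning the shares of Lipe overlapped, at 91.1% and 97.0% in taPVAT and 97.5% and 91.4% in BAT, and with 1 library left out the thinned difference of taPVAT minus BAT ranged from -10.6 to -3.03 percentage points. The other 9 genes had exact permutation p-values of 0.667 or 1. At equal depth, the variance of the counts between adipocyte nuclei over their mean, which is 1 for random sampling, was 1.24 to 1.603 in the 4 libraries for Mgll, 1.10 to 1.38 for Plin2, 1.21 to 1.28 for G0s2, 1.15 to 1.26 for Cidec and 1.12 to 1.23 for Plin1. It was at most 1.12 for Abhd5, Lipe, Plin4, Plin5 and Pnpla2. This ratio stays near 1 where the mean count is close to 0. The values of Pnpla2 and Plin4, found in few nuclei, therefore say little, and genes of unlike means are not ranked by it.

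Outside adipocytes, most of the 10 genes were lower but still counted. In each class edgeR tested the sums of a class against those of adipocytes from the same libraries. In fibroblasts 9 of 10 genes were called lower than in adipocytes and 0 higher, where 28.6% of all genes tested were called lower and 22.6% higher. In mural nuclei 9 were lower (background 24.4% lower and 19.5% higher), in myeloid nuclei 9 (background 26% lower and 21.2% higher) and in T or NK lymphocytes 9 (background 18.2% lower and 13.2% higher). In vascular endothelial nuclei 8 were lower (background 29% lower) and 1, Mgll, was higher (background 25.3%). Pnpla2 was the gene not called in any class. Plin1 had a log2 difference of -2.18 ± 0.20 in fibroblasts (edgeR adjusted p = 3.85e-06), and the smallest called decrease was that of G0s2 in myeloid nuclei, -0.84 ± 0.19 (edgeR adjusted p = 1.12e-04). The classes set part of these sizes, since nuclei whose share of adipocyte marker UMIs was above a limit were kept out of the other classes. Without that limit, an alternative added after the data were seen, the median log2 difference of the 10 genes was -0.99 in place of -1.93 in fibroblasts, -0.69 in place of -1.59 in mural nuclei and -0.64 in place of -1.79 in myeloid nuclei. It was -0.57 in place of -2.05 in T or NK lymphocytes and -0.68 in place of -1.22 in vascular endothelial nuclei, and the value of Plin1 in fibroblasts was -1.14. Scaling by library totals alone moved the median log2 difference of all genes up by 0.22 to 0.44 in the 5 fits, and Plin5 and Cidec were then no longer called in T or NK lymphocytes (edgeR adjusted p = 0.165 and 0.0981). Plin5 lost its call there also without BAT replicate 1 (edgeR adjusted p = 0.113).

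UMIs of adipocyte markers were present in all other classes, so the levels there were set beside those of adipocyte genes. The median over the 11 adipocyte markers with at least 20 CPM lay at 13.3% to 35.2% of the adipocyte level in the 5 classes and 4 libraries, while single markers ranged from 5.03% to 144%. These markers also set the classes, which lowers their values outside adipocytes. Of 3 genes of brown adipocytes that the classes did not use, chosen for this reading after the data were seen, Ucp1 lay at 31.6% to 79.8%, Cidea at 23.6% to 55.5% and Adrb3 at 0% to 47.4%. Plin1 lay at 17.4% to 41.4% and Abhd5 at 10.2% to 46.7%, and the part of adipocyte RNA in these levels was not tested. At 1000 UMIs, Plin1 was found in 36.1% to 58.1% of T or NK lymphocytes, a cell type not known for it, and Abhd5 in 2.17% to 11.8%. Median depth before thinning was 1324 to 1534 UMIs in these lymphocytes, and mitochondrial UMIs made up 19.0% to 23.97% of them. G0s2, Cidec and Plin5 lay higher, at medians of 51.1% to 76.5%, 52.4% to 66.5% and 50.0% to 79.2% over the 5 classes, beside 51.3% to 59.7% for Ucp1, 33.8% to 40.5% for Cidea and 26.6% to 34.0% for Adrb3. For these 3 members no class stood above the others in all 4 libraries. Plin4 had 0 to 40 UMIs per class and library outside adipocytes, too few to order the classes.

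**Figure D4:**
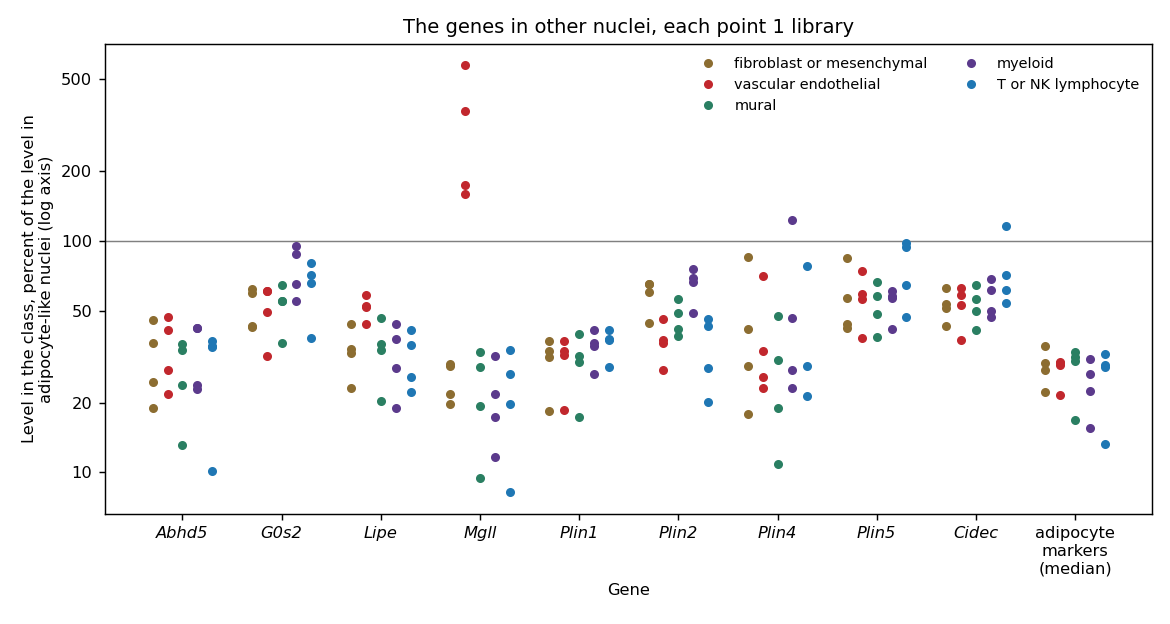
Level of each gene in 5 other classes of nuclei as a percent of its level in adipocyte-like nuclei of the same library, on a log axis, with 1 point per library and the median over 11 adipocyte markers at the right. Mgll in vascular endothelial nuclei lies at 159% to 574%. Pnpla2 is left out for its low count, and Plin4 in T or NK lymphocytes of taPVAT replicate 2, at 0, is not drawn.

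Mgll was the exception. In vascular endothelial nuclei it measured 1545 CPM (replicate 1) and 2786 CPM (replicate 2) in taPVAT, and 2008 CPM (replicate 1) and 2878 CPM (replicate 2) in BAT, above the adipocytes of each library, at 159% (replicate 1) and 365% (replicate 2) of that level in taPVAT, and 175% (replicate 1) and 574% (replicate 2) in BAT. The log2 difference from adipocytes was 1.23 ± 0.29 (edgeR adjusted p = 0.00389), and it was called under each of the 16 alternatives run, with values of 0.87 to 1.52. Vascular endothelial nuclei had median depths of 1399 to 1777 UMIs and mitochondrial shares of 17.6% to 19.6%, against 2983 to 5054 UMIs and 6.09% to 9.49% in adipocytes, and their part in the difference was not tested. In fibroblast, mural, myeloid and T or NK nuclei Mgll lay at 8.19% to 33.9% of the adipocyte level. At 1000 UMIs, it was found in 71.0% to 81.7% of vascular endothelial nuclei (79.4% to 89.3% unthinned), against 34.1% to 63.6% of adipocytes and 4.35% to 26.5% of T or NK lymphocytes. Vascular endothelial nuclei gave 1.35% to 2.36% of the UMIs of a library and 2.64% to 11.7% of its Mgll UMIs. For Plin1 the latter share was 0.266% to 0.803%. In 71 lymphatic endothelial nuclei of taPVAT replicate 1, the only library with 20 or more, Mgll measured 454 CPM (exact Poisson interval 342 to 591), below both the vascular endothelial nuclei and the adipocytes of that library. Between the tissues, Mgll in vascular endothelial nuclei had log2 ratios of -0.38 and -0.05 for taPVAT over BAT in numbers 1 and 2. Here replicate 2 was above replicate 1 in both tissues, opposite to adipocytes, where Mgll was lower in replicate 2.

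Lipe in vascular endothelial nuclei, singled out after its values were seen, lay below adipocytes and above the remaining 4 of the larger classes. It measured 511 CPM (replicate 1) and 419 CPM (replicate 2) in taPVAT, and 633 CPM (replicate 1) and 523 CPM (replicate 2) in BAT, which is 44.0% to 58.3% of the adipocyte level. The log2 difference of Lipe from adipocytes was -1.19 ± 0.18 (edgeR adjusted p = 1.40e-04), and it ranged from -1.37 to -0.67 over the alternatives. In the other 4 classes Lipe lay at 19.0% to 46.4%. Its exact Poisson interval in vascular endothelial nuclei lay above those of all 4 other classes in 4 of 4 libraries, for example 419 CPM (exact Poisson interval 376 to 465) in taPVAT replicate 2, where the highest upper bound of the others was 341 CPM. Mgll was above the others in the same way in 4 of 4 libraries, and none of the remaining 8 genes was in vascular endothelial nuclei of any library. These intervals cover counting error only. Of the smaller classes, B lymphocytes (24 to 71 nuclei per library) had 197 to 512 CPM of Lipe. Their intervals overlapped those of vascular endothelial nuclei in each library. The share of vascular endothelial nuclei with a UMI of Lipe at 1000 UMIs was 34.9% to 46.4%, against 18.9% to 31.2% in fibroblasts, 18.1% to 37.0% in mural nuclei, 20.2% to 36.2% in myeloid nuclei and 21.7% to 35.3% in T or NK lymphocytes, so the ranges over libraries overlapped in part. The adipocyte markers had a median of 21.7% to 29.9% in vascular endothelial nuclei and 22.3% to 35.2% in fibroblasts. In vascular endothelial nuclei Ucp1 lay at 39.0% to 61.2% of adipocytes, Cidea at 31.2% to 50.6% and Adrb3 at 14.6% to 45.4%, and in fibroblasts at 37.6% to 60.4%, 23.6% to 44.5% and 15.5% to 43.8%. The part of adipocyte RNA in the level of Lipe was not tested.

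**Figure D5:**
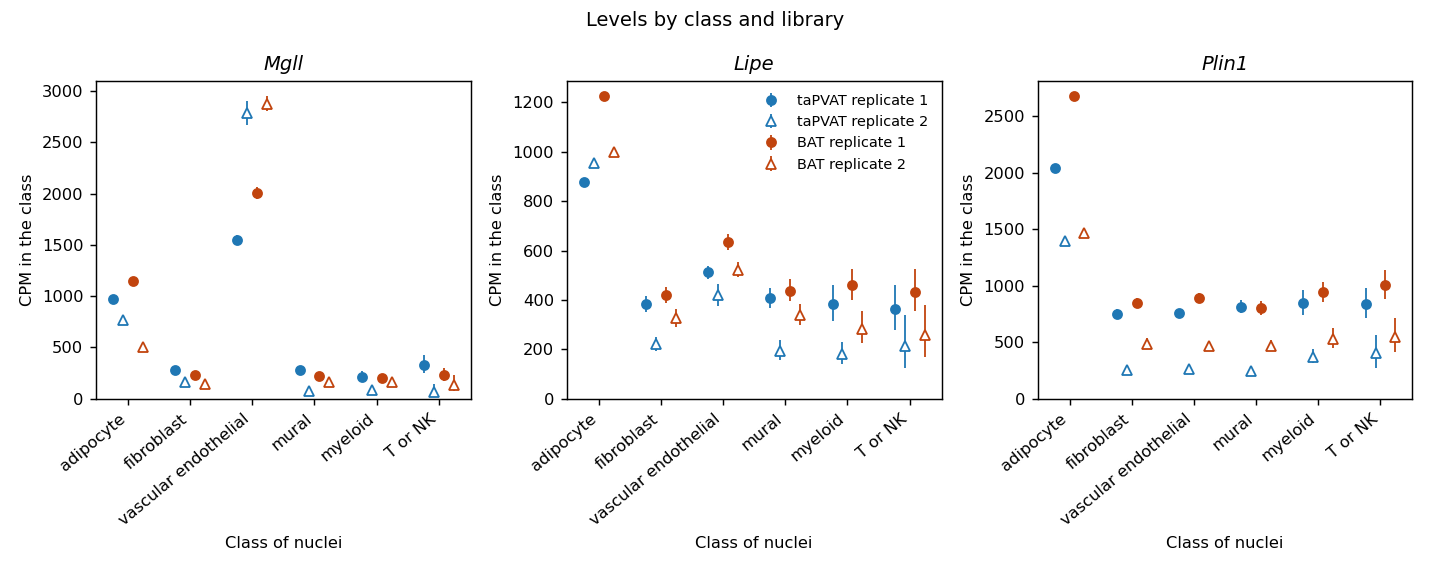
Levels of Mgll, Lipe and Plin1 in adipocyte-like nuclei and 5 other classes, in CPM on axes that start at 0, with 1 point per library (taPVAT blue, BAT red; circles replicate 1, triangles replicate 2) and exact 95% Poisson bars. Mgll is highest in vascular endothelial nuclei in all 4 libraries, Lipe has its highest level outside adipocytes there, and Plin1 lies at 17.4% to 41.4% of adipocytes in the 5 other classes.

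Among the larger classes outside adipocytes, Plin2, whose protein also coats droplets in other cells, had its highest levels in myeloid and fibroblast nuclei. In myeloid nuclei it measured 149 CPM (replicate 1) and 141 CPM (replicate 2) in taPVAT, and 168 CPM (replicate 1) and 105 CPM (replicate 2) in BAT, or 48.6% to 75.9% of adipocytes, and in fibroblasts it lay at 44.4% to 65.1%. In vascular endothelial nuclei it lay at 27.8% to 46.1%. Among these larger classes, myeloid nuclei were highest in 3 of 4 libraries, but their interval lay above the others in 1. Of the smaller classes, Schwann nuclei were above myeloid nuclei in both libraries numbered 1, at 201 CPM in taPVAT and 228 CPM in BAT. They were below them in BAT replicate 2, at 88.2 CPM. B lymphocytes were above myeloid nuclei in taPVAT replicate 1 only, at 181 CPM. These values rest on 5 to 16 UMIs each. G0s2 was highest in myeloid nuclei in 3 of 4 libraries, at 54.8% to 95.4% of adipocytes, with intervals that overlapped another class in each library. In myeloid nuclei Ucp1 lay at 41.6% to 79.8% of adipocytes, Cidea at 29.6% to 47.3% and Adrb3 at 12.4% to 46.5%. The part of adipocyte RNA in the levels of Plin2 and G0s2 was not tested.

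Genes that control lipolysis or handle its products were read in adipocytes from 6 lists. In the edgeR fit and the DESeq2 fit of adipocytes over all 4 libraries, which had no term for the replicate number, 0 of these genes passed an adjusted p of 0.05. At an unadjusted p under 0.05 edgeR held 2 of their 80 tested genes (Adcy9, Gpam), beside 301 of all 16182. Of the 14 tested genes of the adrenergic and cAMP arm, which switches lipolysis on, 6 were lower in taPVAT in both replicate numbers and 2 higher (median log2 fold change -0.11). Counts of this kind, here and for the other lists, use unscaled CPM. Their shares over all genes tested are 28.6% lower and 22.6% higher in both numbers, and 19.6% with no overlap. Adcy9, an adenylyl cyclase, measured 395 and 279.5 CPM in taPVAT and 954 and 548 CPM in BAT, with no overlap, and Akap1, which anchors protein kinase A at mitochondria, 169 and 119 CPM in taPVAT and 257 and 172 CPM in BAT, also with no overlap. Adcy3, another adenylyl cyclase, measured 163 and 41.9 CPM in taPVAT and 96.2 and 18.4 CPM in BAT, and Prkacb, a catalytic subunit of protein kinase A, 106 and 95.9 CPM in taPVAT and 98.1 and 88.1 CPM in BAT. Among the 4 tested genes of the natriuretic peptide arm (median -0.12), the clearance receptor Npr3 measured 1509 and 1415 CPM in taPVAT and 604 and 1017 CPM in BAT, with no overlap.

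Of the 21 antilipolytic genes, such as insulin signalling and inhibitory receptors, 6 were lower and 5 higher in both numbers (median -0.01). The fatty acid receptor Ffar4 measured 192 and 143 CPM in taPVAT and 94.5 and 117 CPM in BAT, with no overlap, and the adenosine receptor Adora1 35.0 and 76.0 CPM in taPVAT and 33.5 and 49.5 CPM in BAT. Irs2, an adaptor of the insulin receptor, measured 168 and 95.3 CPM in taPVAT and 247 and 135 CPM in BAT, and Ptger3, a prostaglandin receptor, 24.4 and 21.2 CPM in taPVAT and 30.95 and 27.1 CPM in BAT, the latter with no overlap. Of 16 further droplet proteins, 9 were lower and 3 higher in both numbers (median -0.07). Cidea, the relative of Cidec found in brown fat, measured 278 and 273 CPM in taPVAT and 375 and 297 CPM in BAT, with no overlap. Cavin1, a caveolar coat protein, measured 25.5 and 15.9 CPM in taPVAT and 27.8 and 22.4 CPM in BAT, and Faf2, a droplet and endoplasmic reticulum protein, 94.6 and 123 CPM in taPVAT and 93.2 and 110.0 CPM in BAT.

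Of 11 other lipases and genes of fatty acid or glycerol handling, 2 were lower and 2 higher in both numbers (median 0.07). Pnpla3, a relative of Pnpla2, measured 671 and 255 CPM in taPVAT and 316 and 125 CPM in BAT. Within each number taPVAT was above BAT, by 2.13-fold and 2.03-fold, although the tissues overlapped. The lipase Ddhd2 measured 388 and 534 CPM in taPVAT and 348 and 432 CPM in BAT, the carboxylesterase Ces1d 20.8 and 22.6 CPM in taPVAT and 27.7 and 43.4 CPM in BAT with no overlap, and the lysosomal acid lipase Lipa 91.8 and 247 CPM in taPVAT and 137 and 312 CPM in BAT. Of 14 genes of triacylglycerol synthesis, 6 were lower and 4 higher in both numbers (median -0.11). Gpam, the mitochondrial acyltransferase that starts glycerolipid synthesis, measured 1198 and 861 CPM in taPVAT and 627 and 241 CPM in BAT, with no overlap. The acyltransferase Agpat3 measured 196 and 126 CPM in taPVAT and 146 and 77.2 CPM in BAT. Gpat3 measured 23.7 and 78.7 CPM in taPVAT and 23.7 and 131 CPM in BAT, and Pck1, an enzyme of glyceroneogenesis, 1119 and 806 CPM in taPVAT and 1812 and 908 CPM in BAT.

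The genes most like each of the 10 in their level over 34 sums of a library and a class, drawn from 11 classes, were found by Pearson correlation of log2(CPM + 1). These sums share libraries, depth and adipocyte RNA, so the values are a description. Plin1 was followed by Prkar2b (r = 0.97), Ppara (r = 0.94) and Clpx (r = 0.91). The first of these is the regulatory subunit of protein kinase A most abundant in fat, which is on the list of the adrenergic and cAMP arm. Lipe was followed by Lpl (r = 0.84) and Ppara (r = 0.84), and Abhd5 by Lpl (r = 0.89), Atf2 (r = 0.88) and Acsl1 (r = 0.85). Lpl, lipoprotein lipase, headed both lists, though it and Acsl1 are among the adipocyte markers that set the classes. Cidec was followed by Pck1 (r = 0.84), Acadl (r = 0.80) and Angptl4 (r = 0.80). For Mgll the closest genes were RGD1308428 (r = 0.86), Ptprm (r = 0.86) and Fhod3 (r = 0.84), none of which is an adipocyte marker used for the classes. G0s2 was followed by LOC103693780 (r = 0.80), LOC100363193 (r = 0.76) and Nrg4 (r = 0.76), Plin2 by Sgpl1 (r = 0.78), Atp2a2 (r = 0.75) and Chchd6 (r = 0.73) and Plin5 by Fbh1 (r = 0.89), Ptpa (r = 0.87) and Sfmbt1 (r = 0.86). Pnpla2 and Plin4 averaged under 20 CPM and were left out. In the RefSeq order of genes Plin4 and Plin5 are neighbours, Plin4 overlaps Hdgfl2, Lipe overlaps LOC120096895 and Mgll overlaps a transfer RNA gene. These overlaps were not read from the annotation used for counting. Neither the labels nor the notes give the strand setting of the counting, so how reads of overlapping genes were assigned is not known.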

How the data were processed

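Nuclei were isolated from snap-frozen fat and libraries made with the 10x 3′ v3.1 kit, per the labels' protocols. The authors deposited UMI counts per gene and barcode. Per the submitters' processing notes, reads were processed with Cell Ranger 7.1.0 against Rnor_6.0; annotation release, treatment of introns and rule for calling nuclei: not given in the sources used here. The 10 genes and all lists were chosen with earlier results of these data known.

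Barcodes with at least 500 genes were kept. A nucleus was positive for a list of markers of another cell type at 3 or more UMIs from at least 2 of its genes and at least 5 times what its depth and the mean of its library give. It entered that class when 1 list was positive and its adipocyte markers were under 0.6 of the mean of its library. Adipocyte-like nuclei had no positive list, at least 10 adipocyte marker UMIs and a level of 0.6 or more. These levels were set on the data, and 7139 of 116661 nuclei lay between 0.5 and 0.7 of the mean. Marker genes such as Col1a2, Pecam1, Muc16, Ttn, Myh1 and Myh2, and of the listed genes Gnas, Prkg1 and Ces1f, were not used, since none of them matched exactly 1 identifier. Doublets were not removed in the values given. As an alternative, Scrublet calls (scanpy 1.11.5) were removed. It marked 5.58% to 11.8% of nuclei in 3 libraries and 3 of 12336 in taPVAT replicate 2, where it had not worked and the 419 nuclei of highest score were taken out instead, a number set by the median ratio of marked to expected doublets in the other 3 libraries.

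Counts were summed per library and class and tested by quasi-likelihood in edgeR 4.0.16 (R 4.3.3; TMM factors, filterByExpr, Benjamini-Hochberg adjustment over all genes tested, threshold 0.05), for tissue over 4 libraries and for each class against adipocytes with library as a term. CPM are counts per 1000000 UMIs of the sum, not scaled by the TMM factors, and intervals are exact at 95%. The numbers of nuclei and UMIs per library set the precision of each value, and these intervals cover counting error only. Shares used 1000 UMIs drawn per nucleus with a fixed seed. Alternatives were DESeq2 1.42.0, RLE factors, library totals only, no filter on low counts, a replicate block, no library term, each library left out, at least 1000 genes, at most 5% mitochondrial UMIs, equal numbers of nuclei, stricter and looser gates and 2000 UMIs or no thinning. A gate with separated adipocyte levels (0.8 and 0.4) and one with no adipocyte limit on other classes were added after seeing the data. Of each list the text names the 2 highest and 2 lowest fold changes among genes with 1 direction in both replicate numbers and at least 20 CPM in a tissue, and for each of the 10 genes the 3 genes of highest correlation, of which 1 for Lipe is not reported here. Promoters were matched by symbol to RefSeq (GRCr8) for 9 of the 10 genes; no coordinates in Rnor_6.0 were used.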

Additional observations from a re-analysis of the deposited data

How the results depend on the processing

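In adipocytes the number of genes called between the tissues rose from 0 to 33 without the filter on low counts and to 64 with DESeq2, and ranged from 0 to 102 with 1 library left out. Over all kept nuclei the numbers were 56, 121 and 0 to 40. The 10 genes were called in none of these fits. A fit with the replicate number as a block called 151 genes in adipocytes and 157 over all nuclei, 0 of the 10 genes in both, and of the listed genes Adcy3, Adcy9, Pnpla3 and Gpam. The deviations of same-numbered libraries from their tissue means correlated at r = 0.68 over 16182 genes, but with 2 pairs and no label for the number they share only a number.

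With 1 library left out, the log2 fold change of taPVAT over BAT ranged over -0.45 to 0.90 for Pnpla2, -0.54 to 0.24 for Abhd5, -0.523 to 7.69e-04 for G0s2, -0.34 to 0.75 for Mgll, -0.58 to 0.18 for Plin1, -0.28 to 0.77 for Plin4 and -0.95 to 0.19 for Plin5, so each changed sign in at least 1 such fit. The shares with a UMI, taPVAT minus BAT in percentage points, ranged over -0.00984 to 0.0503 for Pnpla2, -6.55 to 2.35 for Abhd5, -13.0 to 16.5 for Mgll, -12.1 to 5.25 for Plin1, -0.898 to 1.85 for Plin4 and -6.46 to 1.09 for Plin5. They also changed sign for Pnpla2 at no more than 5% mitochondrial UMIs (-0.00846) and, without thinning, for Abhd5 (0.683) and Plin1 (0.714).

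Of the class differences, only those of Pnpla2 turned: to 0.18 with library totals, 0.0900 with the stricter gate and -1.61 to 0.46 with 1 library left out in vascular endothelial nuclei, to 0.47 in myeloid nuclei and 0.52 in T or NK lymphocytes with no adipocyte limit, and to 1.21 in the latter with DESeq2. Its counts there were 0 to 3 UMIs per library in the values reported. Plin5 in T or NK lymphocytes kept its direction but lost its call with library totals (-0.55, edgeR adjusted p = 0.165), DESeq2 (-0.82, adjusted p = 0.0788), no library term (-0.87, edgeR adjusted p = 0.0779), no adipocyte limit (-0.39, edgeR adjusted p = 0.0521) and without BAT replicate 1 (-0.81, edgeR adjusted p = 0.113), with -1.19 to -0.81 over the fits with 1 library left out. Cidec there lost its call with library totals (-0.47, edgeR adjusted p = 0.0981). The cause was not tested. The class fits at no more than 5% mitochondrial UMIs, and that of T or NK lymphocytes at 1000 genes, could not be run, with 0 to 12 nuclei left in the smallest sum.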
